A study of Drosophila melanogaster with 2 samples.

Results

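Among the peaks of tagged CG2129 on the chromosome arms, 23 had their summit by the start of a non-coding RNA gene and away from every protein-coding start. They were chosen from the authors' pooled ranked peak list by an irreproducible discovery rate (IDR, an estimate of how many calls at a given rank or better would fail to recur) of at most 0.01. Their summits lay within 500 bp of a transcription start site (TSS) of an annotated ncRNA gene and over 500 bp from every protein-coding TSS. The list ranks 47947 peaks in all. The limit, which is 2 on the deposited −log10 IDR scale, was reached by 2113 peaks on the arms, or 4.42% of the ranked arm peaks. The data came from chromatin immunoprecipitation and sequencing (ChIP-seq) with an anti-GFP antibody on whole embryos aged 0 to 4 h. Both samples were biological replicates of 1 group, transgenic flies of the strain CG2129-GFP, in which an insertion yields a CG2129-eGFP fusion protein. Both therefore carried the tag, and the design has no contrast between conditions. A possible control named in the labels was not analysed here, so nonspecific recovery at these places was not measured. Chromatin was sonicated to fragments of 200 to 800 bp, and no RNA was measured. Of the 23 peaks, 17 were 404 bp long, the commonest length in the list.

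CG2129 is a predicted DNA-binding protein with zinc fingers. Long non-coding RNAs (lncRNAs) are transcripts without a long open reading frame. Antisense RNAs (asRNAs) run against the strand of another gene, and hairpin RNAs (hpRNAs) fold back on themselves and are a source of endogenous small interfering RNAs in flies. The palindrome TATCGATA is the DNA replication-related element (DRE), which the factor DREF binds at promoters of many broadly expressed and growth-related fly genes. Its end, CGATA, is also the core that the insulator protein BEAF-32 binds, and GAGAG is the core bound by GAGA factor.

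The windows below show what lay under these summits. Each runs 100 bp to either side of a pooled summit, plus strand of dm6, read from the NCBI copy of Release 6. The first 3 are the strongest members off the second chromosome that hold TATCGAT, which is in capitals on either strand, with overlapping matches run together.
CR45009 chrX:23007524-23007724: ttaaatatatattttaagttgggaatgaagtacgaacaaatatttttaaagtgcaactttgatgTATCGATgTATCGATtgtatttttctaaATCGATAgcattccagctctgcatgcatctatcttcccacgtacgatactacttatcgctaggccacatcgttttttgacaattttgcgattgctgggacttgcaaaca
CR43838 chrX:20760688-20760888: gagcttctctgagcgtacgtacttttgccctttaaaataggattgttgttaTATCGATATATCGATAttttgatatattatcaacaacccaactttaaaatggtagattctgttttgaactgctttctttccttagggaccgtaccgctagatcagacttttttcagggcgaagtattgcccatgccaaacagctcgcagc
CR45806 chr3L:174606-174806: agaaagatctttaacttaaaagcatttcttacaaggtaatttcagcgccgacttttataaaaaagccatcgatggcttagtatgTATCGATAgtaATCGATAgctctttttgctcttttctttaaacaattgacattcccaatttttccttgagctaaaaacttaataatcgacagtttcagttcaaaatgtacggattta
The next pair shows a hairpin RNA gene and a second hairpin gene near it that shares much of the sequence but missed the IDR limit, again with TATCGAT in capitals.
CR33940 chr3L:19488368-19488568: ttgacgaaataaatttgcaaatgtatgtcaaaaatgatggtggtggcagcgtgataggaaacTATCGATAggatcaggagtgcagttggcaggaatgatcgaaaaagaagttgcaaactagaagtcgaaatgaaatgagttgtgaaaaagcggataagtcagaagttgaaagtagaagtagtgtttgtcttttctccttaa
CR32207 chr3L:19478659-19478859: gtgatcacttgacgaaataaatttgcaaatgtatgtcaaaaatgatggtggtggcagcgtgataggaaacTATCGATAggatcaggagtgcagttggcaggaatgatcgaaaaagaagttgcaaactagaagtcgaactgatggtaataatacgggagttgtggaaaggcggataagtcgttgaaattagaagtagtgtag
The following pair comes from the strongest members off the second chromosome with no TATCGAT in the window, and the capitals mark CGATA.
CR45891 chr3R:15803596-15803796: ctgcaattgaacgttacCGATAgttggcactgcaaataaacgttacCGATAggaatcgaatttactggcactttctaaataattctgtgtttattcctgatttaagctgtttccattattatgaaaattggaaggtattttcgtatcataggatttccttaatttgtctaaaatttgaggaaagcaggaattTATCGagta
Hsromega chr3R:21295801-21296001: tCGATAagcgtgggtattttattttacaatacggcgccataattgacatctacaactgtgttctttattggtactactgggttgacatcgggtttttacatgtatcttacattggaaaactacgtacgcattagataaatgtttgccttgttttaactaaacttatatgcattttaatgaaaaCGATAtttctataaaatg
The last, from an intron of bun, holds no TATCGAT and the highest number of GAGAG matches shown, which are in capitals.
CR42746 chr2L:12543193-12543393: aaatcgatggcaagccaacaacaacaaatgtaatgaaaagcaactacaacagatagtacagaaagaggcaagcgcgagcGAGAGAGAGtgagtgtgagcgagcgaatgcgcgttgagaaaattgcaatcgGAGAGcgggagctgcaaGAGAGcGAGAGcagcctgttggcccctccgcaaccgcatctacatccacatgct

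The 23 peaks belonged to 17 genes, which were 11 lncRNA genes with 16 peaks, 5 antisense RNA genes with 6 peaks and 1 hairpin RNA gene with 1 peak. RefSeq listed all 17 by symbol and gave 11 of them as lncRNA, 5 as antisense RNA and 1 as ncRNA. They are therefore not all lncRNA genes. By arm, 7 peaks were on 3R, 6 on 2L, 4 on 2R, 3 on 3L and 3 on X. Of all passing peaks, 24.1%, 16.7%, 20.4%, 18.1% and 20.3% were on these arms in turn. No microRNA gene had 1 of the 23 peaks among 260 annotated. Of these genes, 84 had a ranked peak by a start and over 500 bp from every coding start. Of all 3289 ncRNA genes, 932 had a ranked peak within 500 bp of a start and over 500 bp from every coding start. Ranked peaks at starts of both kinds are not in this count. Of the 3289 genes, 17 (0.517%) had one of the 23 peaks. Seen from the ranked list, 868 arm peaks lay at ncRNA starts without a coding start, and 23 of them (2.65%) passed the IDR limit, against 4.42% of all ranked arm peaks. At coding starts alone 1878 of 10611 passed (17.7%), at starts of both kinds 61 of 364 (16.8%), and at neither 151 of 35967 (0.420%).

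Several of the 23 were neighbours. They fell into 18 groups, 13 of a single peak and 5 overlapping pairs, at CR45009, Hsromega, CR44948, CR42746 and CR44697. In all, 11 members (47.8%) overlapped another peak past the limit, against 24.5% of the 2113. The 5 members with a signal under 20 each overlapped a stronger passing peak and carried nearly its IDR. The weak peak at CR45009, for example, had a signal of 13.3 and the same −log10 IDR of 5 as its neighbour at 152. At CR42746 the pair had signals of 39.7 and 16.6 and −log10 IDRs of 2.33 and 2.33. The weak peak at CR43995 (13.8) overlapped a peak of 48.0 that was no member, since its summit was 365 bp from the start of CG7139. In the list of replicate 1, 6 members shared their matching peak with the other member of a pair, and in that of replicate 2, 4 did. The CR44948 and CR44697 pairs shared none. The 23 are thus not 23 separate observations.

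**Figure D1:**
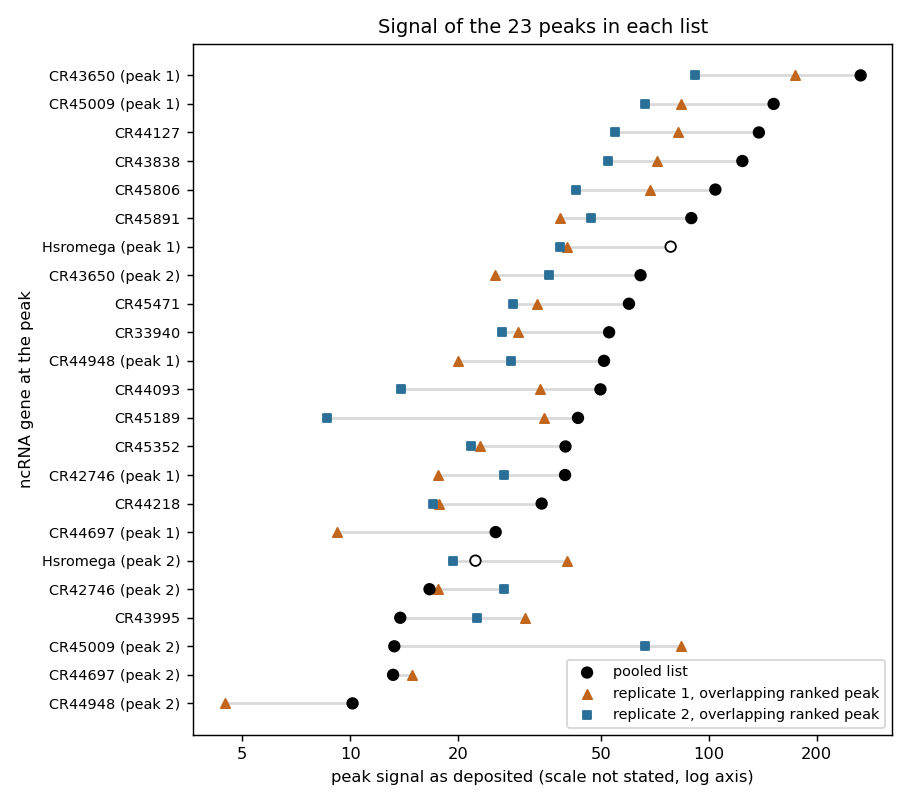
Deposited signal (log axis, scale not stated) of each of the 23 peaks in the pooled list (circles) and of the ranked peak that overlaps it by at least 50% of either peak in the list of replicate 1 (triangles) or replicate 2 (squares). Open circles mark the pair of Hsromega peaks outside the pooled thresholded list; the strongest 5 peaks, from 104 to 265, are higher in replicate 1 than in replicate 2.

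The signals ranged from 10.1 to 265 with a median of 49.8. This is the authors' value for each peak, with no stated scale, and is used only to order and describe peaks. Over all 2113 peaks the median was 77.8, and 16 of the 23 members lay below it. The median was 81.0 for 1878 peaks at coding starts alone, 90.9 for 61 at starts of both kinds and 55.9 for 151 at neither. With 1 peak for each group the members' median was 56.3, and 11 of 18 lay below the median of all peaks. Most members thus lay below the middle of the list, and 5 were over 100.

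**Figure D2:**
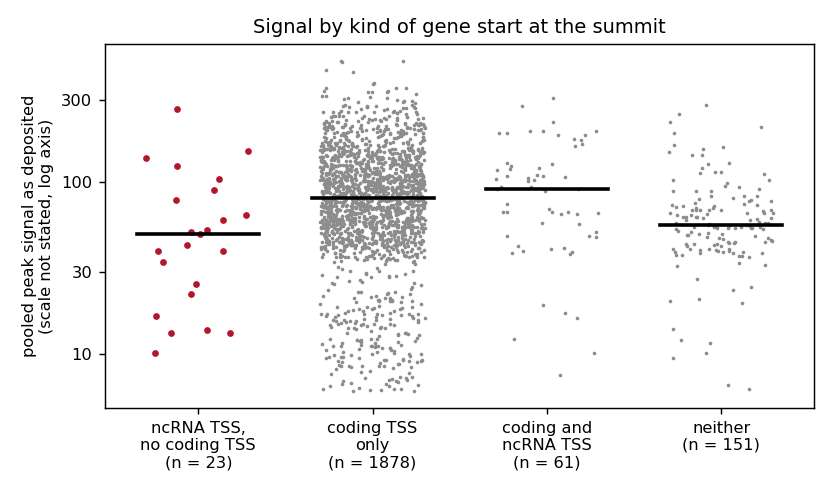
Pooled signal (log axis, scale not stated) of the 2113 arm peaks past the IDR limit, by the kind of start within 500 bp of the summit; points are peaks and lines are medians. The ncRNA-only peaks have a median of 49.8 and the coding-only peaks 81.0, and the ranges overlap widely.

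The strongest peak lay at lncRNA CR43650 (chr2R:16830359-16830688), with a pooled signal of 265, the 46th of 2113 in rank. Its overlapping peaks had signals of 173 in replicate 1 and 91.7 in replicate 2. The summit was 122 bp upstream of the later of this gene's 2 annotated starts and inside an exon of the transcript from the earlier one. A second peak by the earlier start (chr2R:16828751-16829154) had signals of 64.5, 25.3 and 35.9 in the pooled list, replicate 1 and replicate 2. The order of the replicates was thus opposite at the 2 starts. Neither window held TATCGAT, and their GC content was 49.3% and 60.7%.

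The 4 members next in signal all held TATCGAT and passed in both replicates. The peak at asRNA CR45009 (chrX:23007528-23007798), whose gene lies against FucTC, a gene for an alpha-fucosyltransferase, had signals of 152 pooled, 83.4 in replicate 1 and 66.5 in replicate 2. At lncRNA CR44127 (chr2R:5967728-5967929) they were 138, 81.8 and 54.8. Summits were 48 and 80 bp upstream of the annotated starts. The peak at lncRNA CR43838 (chrX:20760707-20760882) had 124, 71.7 and 52.4, and its summit was 14823 bp from the nearest coding start, the farthest of the 23. It held 4 matches to TATCGAT, as 2 neighbouring palindromes read on both strands. At asRNA CR45806 (chr3L:174658-174803) the signals were 104, 68.6 and 42.5, with the summit 432 bp upstream of the start and 2 bp from the nearest TATCGAT. In each of these 4, replicate 1 was the higher, as it was over all 2113 peaks (medians 48.1 and 36.1).

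Of the next members, asRNA CR45891 (chr3R:15803626-15803743), the shortest peak at 118 bp, had signals of 89.3, 38.4 and 46.9. It passed in the list of replicate 2 but not of replicate 1, where its −log10 IDR was 0.489. Its summit was 552 bp from the start of alpha-Man-IIb, a Golgi mannosidase gene. At lncRNA CR45471 (chr2R:4730222-4730625), 1407 bp from the start of Nipped-B, the cohesin loader, the signals were 59.9, 33.2 and 28.5, and 3 matches to TATCGAT came as near as 1 bp to the summit. This peak too passed only in replicate 2, with −log10 IDRs of 2.04 there and 0.0911 in replicate 1.

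Hsromega, the heat-shock-inducible nuclear lncRNA around which omega speckles form, was the 1 member gene from a list of 35 well-known ncRNAs, of which 28 were found by symbol. Its stronger peak (chr3R:21295699-21296102) had signals of 78.2 pooled, 40.3 in replicate 1 and 38.5 in replicate 2. The weaker one (chr3R:21295902-21296305) had 22.3 pooled and 19.3 in replicate 2, and matched the same replicate 1 peak. Its window held 1 TATCGAT match, 48 bp from its summit and within the bounds of the stronger peak, whose own window held none. The stronger peak's summit was 226 bp and the weaker one's 23 bp upstream of the start at chr3R:21296127. That start is annotated for 1 of the gene's 7 transcripts, and the other 6 begin at chr3R:21296621. Both peaks had a −log10 IDR of 3.12 in the pooled list, and the matching peaks had 2.66 in replicate 1 and 2.57 in replicate 2. Yet neither was in the pooled, conservative, replicate 1 or replicate 2 thresholded list. In all, 47 of the 2113 arm peaks past the limit were left out of the pooled thresholded list, and these were the only members among them. The deposited readme names a further input of the thresholded lists without saying what it holds, and the reason was not tested.

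Other well-known ncRNAs were below the limit or excluded by a coding start. The dosage compensation RNAs roX1 and roX2 had ranked peaks with signals of 15.5 and 26.7 and −log10 IDRs of 0.0991 and 0.329. The piRNA cluster flam had 15.9 and the microRNA host let7C 19.3, both below the limit. RNaseMRP:RNA, the RNA of a processing ribonuclease, had a signal of 39.5 but a −log10 IDR of 0.0728. The signal recognition particle RNA gene 7SLRNA:CR32864 came nearer the limit, with 35.3 and 1.87. The snoRNA host genes Uhg2 and Uhg8 had strong peaks of 311 and 93.5, but these summits were 126 and 30 bp from coding starts and are not members. Of the 28 found, 17 had a ranked peak, 3 had one past the limit and 1 was a member.

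The hairpin RNA gene CR33940 had 1 peak (chr3L:19488266-19488669), with signals of 52.7 pooled, 29.3 in replicate 1 and 26.5 in replicate 2. Its summit was 29 bp upstream of the start that its 3 transcripts share. Of the 171 stretches of 31 bases in its window, 99 (57.9%) occur at the hairpin gene CR32207 (chr3L:19477329-19478720) and 68 (39.8%) at CR32205 (chr3L:19420390-19424183). The palindrome is shared with CR32207, as the printed pair shows. Reads from the shared stretches cannot be assigned to 1 of these genes by sequence, so the division of signal among them is uncertain. The peak at CR32207 had a signal of 37.9 and a −log10 IDR of 1.90, just under the limit, and CR32205 had no ranked peak. Of the 5 other hairpin RNA genes, CR18854 had a best signal of 25.1, CR46340 had 18.2 and the others had no ranked peak. Repeated 31-base stretches occurred in 2 members (8.70%), against 3.08% of all passing peaks. No member had an annotated transposon within 100 bp of its summit, and only 0.473% of all passing peaks had one.

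Some ncRNA starts lay inside coding genes. Of the 17 genes, 8 overlap a coding gene on the opposite strand, 0 on the same strand and 9 overlap none. The summits of 5 members fell in introns of CG2182, zfh1, bun (both peaks) and kis. These are, for the last 3, genes for a zinc-finger homeodomain repressor, a TSC22-domain protein and a chromatin remodeller. ChIP peaks carry no strand, so a peak there belongs to the intron as much as to the ncRNA start. In the zfh1 intron, asRNA CR45189 (chr3R:30783600-30784003) had a signal of 43.2, with 34.8 in replicate 1 and 8.62 in replicate 2, ranks 1427 and 19170 of the replicate lists. In the CG2182 intron, asRNA CR44093 (chr3R:5658874-5659277) had 49.8, with 33.7 and 13.8. These 2 members passed in replicate 1 alone and in neither the conservative list nor, at 0.0772 and 1.25, the second pooled ranked list. Among the 23 members, passing in those 2 pooled lists differed only at the Hsromega peaks, so they are not separate evidence. The peaks in bun and kis had signals of 39.7 and 34.2 in the strongest case each, no TATCGAT, and 6 and 3 matches to GAGAG.

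At lncRNA CR45352, 1638 bp from the start of NimC3, a gene for a phagocytosis receptor, the signals were 39.8, 23.0 and 21.7 and the −log10 IDR was 2.09, the lowest of the 23. At lncRNA CR44948 the pair had −log10 IDRs of 2.10 and 2.10, and signals of 51.0 and 10.1. The summit of its stronger peak lay 494 bp downstream of the start, past the other end of this 401 bp gene and nearest of all to the distance limit. The weaker CR44697 peak (475 bp) and the CR45806 peak (432 bp) came next. Both CR44697 peaks, at 25.4 and 13.2, had an overlapping ranked peak in replicate 1 (9.16 and 14.9) and none in replicate 2. Nearest to the coding limit were CR45189 at 544 bp, CR45891 at 552 bp and CR43995 at 572 bp.

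Peaks just outside each limit had signals from 6.22 to 128. Below the IDR limit were CR45433 at 1.92 (signal 29.4) and the pair at CR32207 at 1.90 and 1.89 (37.9 and 6.22). Just too far from an ncRNA start were a peak 515 bp from CR42254 (19.7), one 554 bp from CR45912 (38.7) and one 857 bp from CR46093 (69.1). Just within a coding start's reach were the CR43995 neighbour already named, a peak at CR42254 that was 307 bp from BEAF-32 (128), and one at CR45618 that was 264 bp from prtp (106).

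**Figure D3:**
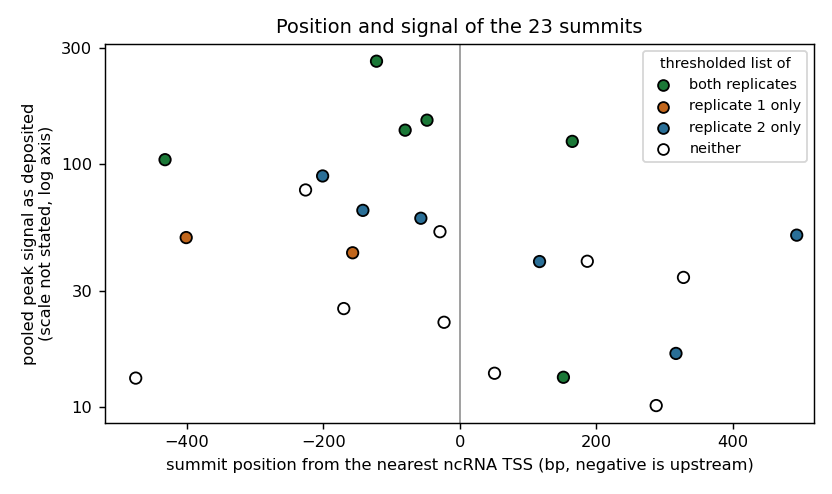
Position of each of the 23 summits from the nearest ncRNA TSS (bp, upstream negative) against its pooled signal (log axis, scale not stated), coloured by the replicate thresholded lists that hold an overlapping peak. There are 14 summits upstream and 9 downstream, and the points spread over the whole window from −475 to 494 bp.

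The distance to the ncRNA TSS ranged from 23 to 494 bp with a median of 165 bp, and 60.9% were within 200 bp. For the 1878 peaks at coding starts alone the median distance to a coding TSS was 58 bp, and 94.7% were within 200 bp. Of the members, 14 summits lay outside the ncRNA gene, 8 in an exon of it and 1 in an intron. Relative to the nearest start, 14 were upstream and 9 downstream. The nearest coding start was 544 to 14823 bp away, with a median of 1638 bp, and was under 1000 bp for 7 members.

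The pooled thresholded list held 21 of 23 members (91.3%), against 97.8% of the 2113 peaks. The ranked list used was chosen because it holds every row of that list, so these shares were largely set by the choice. They do not measure replicate support. The conservative list, also pooled, held 13 (56.5%, 95% interval 34.5 to 76.8), against 81.3%. Support in the replicate lists was uneven. A replicate peak counted as a match when at least 50% of it, or of the pooled peak, was shared. The thresholded list of replicate 1 matched 8 members (34.8%, 16.4 to 57.3), against 74.6% of all passing peaks. That of replicate 2 matched 12 (52.2%, 30.6 to 73.2), against 60.7%. Both lists matched 6 (26.1%, 10.2 to 48.4), against 52.2% of all, 54.7% at coding starts alone and 23.2% at neither. For 9 members (39.1%) neither list had a match, against 16.9% of all passing peaks and 32.5% of those at neither kind of start. The 9 members were both Hsromega peaks, CR33940, CR45352, CR44218, both CR44697 peaks, CR43995 and the weaker CR44948 peak. The intervals are exact Clopper-Pearson, cover counting error only and take overlapping members as separate.

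Counting only the stronger peak of each of the 18 groups, 5 passed in both replicates, 2 in replicate 1 alone, 5 in replicate 2 alone and 6 in neither. All 23 members had an overlapping ranked peak in replicate 1 and 20 (87.0%) had one in replicate 2, against 97.8% and 96.2% of all passing peaks. Of those 20, 15 had the higher signal in replicate 1, but 12 had the better rank in replicate 2. With 1 peak for each group these counts were 13 and 10 of 17. Over all passing peaks the median signal was also higher in replicate 1 (48.1 against 36.1). The ranked lists of replicates 1 and 2 hold 40775 and 47717 peaks. The same counts over all passing peaks are not given here. In the second pooled ranked list 15 of 23 reached the limit and 8 did not, with a lowest value of 0.0305. The matching share of all passing peaks is not given here, so this count has no background. Which replicate held a match thus differed from gene to gene.

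**Figure D4:**
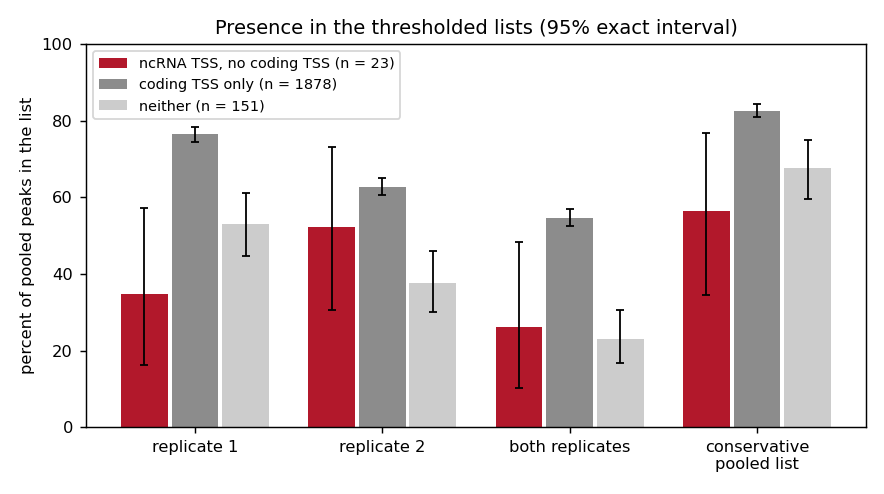
Percent of pooled peaks with an overlapping peak in the thresholded list of each replicate or of both, and percent present in the conservative pooled list, for ncRNA-only, coding-only and neither-class peaks. Bars are shares with 95% exact intervals for counting error; in replicate 1 the ncRNA-only share is 34.8% and the coding-only share 76.5%.

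TATCGAT, searched on both strands within 100 bp of the summit, occurred in 11 members (47.8%, 26.8 to 69.4), against 54.6% of all passing peaks. It stood in 57.1% of coding-only windows and 23.8% of those at neither. Of 2128 windows of the same length centred on other lncRNA, antisense or hairpin starts without a coding start near, 2.54% held it. Those windows are centred on starts and not on summits. In 8 members it occurred 2 or more times (34.8%, against 37.4% of all). The nearest match was 1 to 87 bp from the summit, with a median of 27 bp. The full palindrome TATCGATA, which holds TATCGAT on both strands, was in 6 members (26.1%, against 31.8% of all). CGATA, which every TATCGAT match holds on 1 strand, was in 16 (69.6%, against 81.1%).

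Members with and without TATCGAT can be set side by side. The 11 with it had a median signal of 52.7 and a median GC content of 34.8%, and 5 passed in both replicates. The 12 without it had 39.8 and 47.0%, and 1, the strongest CR43650 peak, passed in both. The conservative list held 9 of the first and 4 of the second. GAGAG was in 2 of the first and 6 of the second. With 1 peak for each group there were 9 with TATCGAT (median signal 59.9, GC 34.8%, 4 passing in both) and 9 without (43.2, 47.8% and 1). Groups were classed by the window of their strongest peak alone. The Hsromega group thus counts as without, though the window of its weaker peak held 1 match. These splits were made after the values were seen and have no test.

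Other motifs were searched in the same windows on both strands. GAGAG was in 8 members (34.8%, 16.4 to 57.3), against 15.7% of all passing peaks and 20.8% of the other ncRNA starts. Peaks at neither kind of start held it in 22.5%. With 1 peak for each group it was in 5 of 18 (27.8%). The TATA box TATAAA was in 2 (8.70%, 1.07 to 28.0), against 29.4%. The core of promoter motif 7 (CAGC or CATC, any base, then CTA or CTG) was in 3 (13.0%, 2.78 to 33.6), against 33.7%. An initiator (TCA, G or T, then T, then C or T) was in 10 (43.5%), against 39.1%. The E-box CAGCTG and the Caudal core TTTATG were in 3 members each, against 13.9% and 16.5% of all. CAA or CAG followed by CCCT and A or G was in 1 member, against 6.86%. The Zelda site CAGGTAG and the M1BP site were in 0 of 23, which allows shares of up to 14.8%, against 0.757% and 3.74%. With 12 motifs and 23 windows that partly overlap, none of these shares is called different from the background, and a match of letters is no measured binding site.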

How the data were processed

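ChIP-seq was done on 2 biological replicates of 1 group. The authors deposited 8 peak lists on dm6, per the labels and the readme text. Each peak has a start, an end, a summit and a signal, whose scale the deposited files do not state. The ranked lists add a −log10 IDR, as deposited by the authors. The aligner and caller were not given in the sources used here. Read depth is unknown. In each of 4 ranked lists, 8 further per-sample columns could not be tied to a replicate and were not used.

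The pooled ranked list used is the one that holds every row of the pooled thresholded list (2067 peaks). The thresholded lists of replicates 1 and 2 have 1681 and 1347 peaks. TSSs came from Ensembl release 115 on BDGP 6.54 (transposons left out): 3416 of class ncRNA and 19275 protein-coding. Its arm coordinates are those of dm6. Coordinates count from 1. Values were computed with Python 3.11.15, pandas 2.3.3, numpy 2.4.6 and scipy 1.17.1, and the classification, overlap and motif steps were tested on simulated data. With 1 group there is no test over samples, so shares stand beside those of all passing peaks.

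Named peaks were the 10 strongest, those outside the thresholded list, those of well-known ncRNAs, those with the lowest −log10 IDR, those nearest each limit on both sides, and those that differed most between replicates; some others were named after their values were seen. The members, lists and motifs were chosen with earlier results of these data known. Alternatives were other distance and IDR limits, the second pooled list, each replicate alone, gene starts, other overlaps and motif windows, and, chosen after seeing the data, RefSeq starts and 1 peak for each group.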

Additional observations from a re-analysis of the deposited data

How the results depend on the processing

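The number of members was 15 with a 200 bp limit on distance to both kinds of start and 9 with a −log10 IDR of at least 3. It was 18 with a 1000 bp limit and 33 with a −log10 IDR of at least 1.3. From the list of 1 replicate alone it was 11 (without replicate 2) to 15 (without replicate 1). Those lists recovered 10 and 14 of the 23. The members also in the pooled thresholded list went from 21 to 7 at the stricter IDR, to 13 in the second pooled ranked list and to 10 to 13 without 1 replicate. The percent in both replicate lists went from 26.1 to 66.7 at the stricter IDR and to 4.35 where the overlap had to cover 50% of both peaks. Without 1 replicate it was 33.3 to 54.5. The members' median signal was 104 at the stricter IDR, against 49.8. The percent in the list of replicate 1 went from 34.8 to 66.7 at the stricter IDR, to 90.9 without replicate 2 and to 21.7 under the stricter overlap. That in the list of replicate 2 went from 52.2 to 77.8 at the stricter IDR, to 86.7 without replicate 1 and to 30.4 where 50% of both peaks had to overlap. Without 1 replicate, members were chosen from the other replicate's own ranked list. The 90.9 and 86.7 were largely set by that choice and do not measure replicate support. Shares of all passing peaks under these alternatives are not given here, so the changes cannot be called particular to the members. The percent with TATCGAT ran from 34.8 to 66.7 over 13 alternatives, each of which moved it by less than its counting interval. RefSeq starts gave the same 23 peaks. Gene starts alone kept 22, dropped the strongest CR43650 peak and added 5. Beyond the fewer peaks that a stricter limit leaves and the choice from 1 replicate's own list, the cause of these differences was not tested. Depth is unknown, signals have no stated scale, and 23 peaks give wide intervals. No paired analysis was possible because both samples belong to 1 group.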
